A study of Mus musculus with 2 samples.

Results

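The genes described here are 10 antioxidant and glutathione genes: Nfe2l2, Nqo1, Hmox1, Gclc, Gclm, Srxn1, Txnrd1, Gsta4, Gstm1 and Gstp1. They were taken as every non-control spot that carries one of these names in the scanner files of both arrays, which gave 25 spots per array and 16 probes, for 10 of 21475 named genes on the array. All 10 were among the 13702 named genes that were bright enough to be tested. Each of the 16 probes was well above background in all 4 RNAs, by the mark of the scanner software. Gsta4 was read by 10 spots of a single probe, Nfe2l2 and Srxn1 by 3 probes each, Gstm1 and Gstp1 by 2 each, and the other members by 1.

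Expression was measured in prostaspheres, which are spheres grown in Matrigel from mouse epithelial cells, on 2 two-color Agilent arrays. On the array of the genotype comparison, the Cy5 RNA came from wild-type C57/Bl6J cells and the Cy3 RNA from ER-Sox9flox/flox cells, both given tamoxifen (TAM). On the array of the treatment comparison, both RNAs came from ER-Sox9flox/flox cells, given vehicle (Cy5) or TAM (Cy3). In ER-Sox9flox/flox cells, TAM activates a Cre recombinase that removes the floxed Sox9 gene. The methods list Rosa26ERCre mice, in which Cre is driven from a locus active in most cell types, so the deletion is not limited to a lineage. The culture medium held dihydrotestosterone, and TAM was given at 5 µM for 6 days after 6 days in Matrigel. By the labels, the cells were urogenital sinus (UGS) epithelium taken at 16 dpc, and by the methods of the prostasphere assay they were adult prostate cells. How many animals gave each RNA, whether RNAs were pooled, and whether the Sox9-deleted RNAs of the 2 arrays came from separate cultures, is not given in the sources used here. The p-values below therefore rest only on spread between these 2 arrays. The arrays are different comparisons, each run once, so this spread also holds any difference between the comparisons. If the arrays shared a Sox9-deleted culture, their values would not be independent. For limma, the spread of a probe is drawn toward that of all tested probes.

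Log2 ratios set the Sox9-expressing RNA over the Sox9-deleted, so a negative value means less signal with Sox9. That assignment follows the titles, genotypes, treatments and dyes of the labels. The source names of the labels, which mark the Cy5 RNA with the gene's name and the Cy3 RNA as a control, were not used, and reading them as the deleted gene would turn every sign. The brightness given for an RNA is the processed intensity of the scanner software, which is background-subtracted and dye-normalized within an array, so it is compared only between the RNAs of 1 array and never between probes. Log2 ratios were computed separately, from the mean intensities after background correction and loess normalization. The Sox9-expressing RNA carried Cy5 each time, and the arrays lay on 1 slide and came from 1 scan, so dye bias and loss of Sox9 cannot be told apart. The genotype comparison also sets different mouse lines against each other, and the treatment comparison also sets TAM against vehicle. In RNA of whole spheres, fewer cells of a type and less RNA per cell cannot be told apart. As a check of the labels, the brightest Sox9 probe had log2 ratios of 2.69 and 2.37 on the genotype and treatment arrays, another Sox9 probe 1.18 and 1.27, and the remaining probe -0.997 and -1.22. Krt5 (2.13 and 1.91) and Krt14 (2.07 and 1.86), cytokeratins of basal epithelial cells, were above 0 on both.

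Nrf2, the protein of Nfe2l2, is the transcription factor that switches on many antioxidant genes. Keap1 normally holds it in the cytoplasm and passes it to degradation. When oxidants or electrophiles modify Keap1, Nrf2 enters the nucleus, pairs with a small Maf protein and binds antioxidant response elements in gene promoters. Its best-known targets make glutathione (Gclc, Gclm), attach glutathione to reactive compounds (the transferases), reduce quinones (Nqo1), break down heme (Hmox1) and keep thioredoxin and peroxiredoxins reduced (Txnrd1, Srxn1). Activity of Nrf2 is set mainly through its protein, so the mRNA of Nfe2l2 need not move with that of its targets.

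The core letters of the antioxidant response element, TGACNNNGC, were searched on both strands of the RefSeq promoter windows, which run from 250 bases before to 50 bases after a gene's start (build GRCm38.p6). Windows were held for 7 of the 10 members (10 windows, since some genes have several starts), and for Hmox1, Gclc and Gsta4 there was no entry. The core was found in a window of Nfe2l2, Gclm, Srxn1 and Txnrd1, printed here in the direction of transcription with the match in capitals, and 12.4% of all 32851 windows of the table hold it. The match starts 240 bases before the start of Nfe2l2, 134 before Gclm and 92 before the second of 3 Txnrd1 starts. In Srxn1 it begins at base 29 after the start.
Nfe2l2 (chr2:75704885-75704913, minus strand): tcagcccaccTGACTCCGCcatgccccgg
Gclm (chr3:122245413-122245441, plus strand): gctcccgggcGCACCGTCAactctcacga
Srxn1 (chr2:152105542-152105570, plus strand): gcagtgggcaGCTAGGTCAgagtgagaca
Txnrd1 (chr10:82859104-82859132, plus strand): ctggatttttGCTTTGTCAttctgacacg

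In Gclm, Srxn1 and Txnrd1 the core lies on the opposite strand, so its reverse complement is printed. Of these 4 genes, Srxn1 and Txnrd1 had negative log2 ratios on both arrays by every probe, while Gclm and Nfe2l2 were close to 0. No match was found in the windows of Nqo1, Gstm1 (2 windows) and Gstp1. Among the other pathway genes introduced further on, 76 had a window (109 windows in all), and 18 of these genes held the core. The 12.4% given above is a share of single windows, so it cannot be set against a count of genes, some of which have several. Of the Sox-type motifs, ACAATG was found in no member's window (12.6% of all windows) and ACAAAG (18.7% of all) in 2 of the 3 windows of Txnrd1 and in that of Gstp1. In the Txnrd1 window shown, ACAAAG overlaps the antioxidant core printed above. A match is a description of the letters, not a bound site, and letters outside these windows were not searched.

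Across the 10 members, read from the brightest probe, log2 ratios were small. The median of the mean log2 ratio over both arrays was -0.16, against -0.00076 for all tested genes. On the genotype array the members' median was -0.30 and on the treatment array -0.02. Nfe2l2, Nqo1, Hmox1, Srxn1, Txnrd1 and Gstp1 (6 of 10, 60%) were below 0 on both arrays, against 34.4% of all tested genes. Gclc and Gclm (2 of 10, 20%) were above 0 on both, against 33.0% of all. Gsta4 and Gstm1 were below 0 on the genotype array and above 0 on the treatment array. The share of all tested genes with these signs was not computed. No member reached a 2-fold difference on both arrays, which 0.562% of tested genes did.

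At an adjusted p under 0.05, limma called 0 of the 10 members, against 0.0146% of all tested genes. At an unadjusted p under 0.05 it called Hmox1, Srxn1, Txnrd1 and Gstp1, all lower with Sox9 (4 of 10, 40%), against 9.33% of all tested genes called lower. It called 0 members higher, against 10.5% of all. The methods' t-test called 0 members after adjustment, and 0 of the 22731 tested probes. Without adjustment it called 1 member, Hmox1, and 1930 of those probes. These directions and calls rest on loess normalization. Median centring of each array in its place left the median log2 ratio of all tested probes at 0.02 on the genotype array and 0.38 on the treatment array. With it no member was below 0 on both arrays, and the share of all tested genes there was not computed. At an unadjusted p under 0.05 limma then called 0 members lower, against 0.737% of all tested genes, and 1 higher, Gstm1 (mean 0.60, unadjusted p = 0.0278), against 12.0% of all. Relative to those medians, Nqo1, Hmox1, Gclm, Srxn1 and Txnrd1 were below the median of both arrays. Nqo1 was so by under 0.01 on the treatment array, and the dim Gclm by under 0.01 on the genotype array. The share of all tested genes below both medians was not computed.

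**Figure D1:**
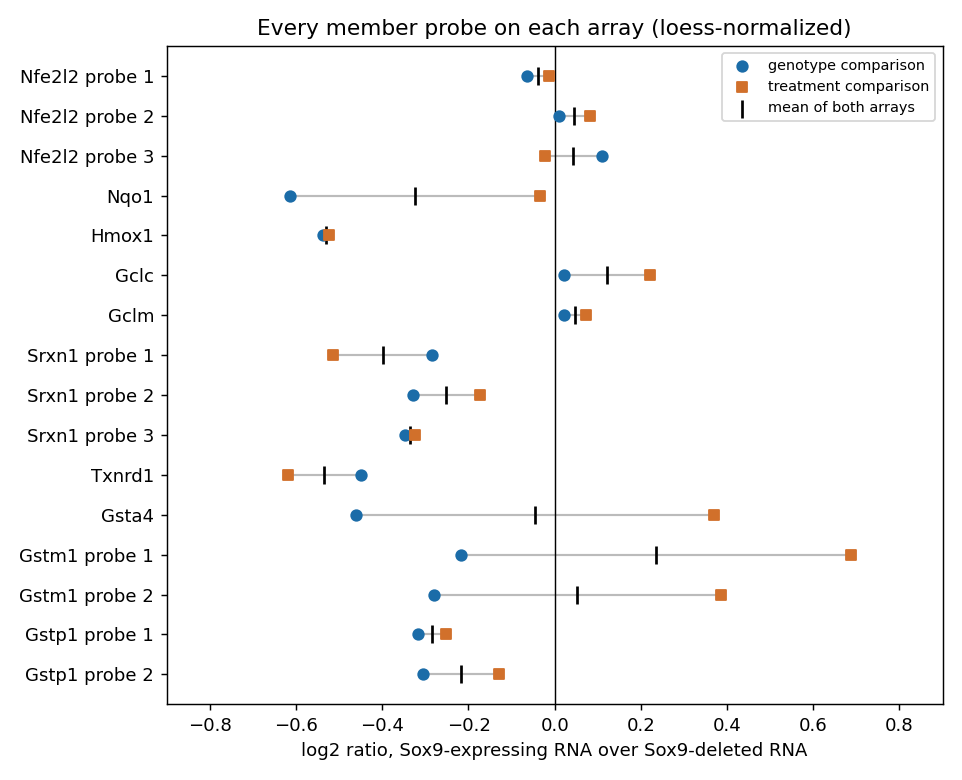
Log2 ratio (x axis, Sox9-expressing over Sox9-deleted RNA, after loess normalization) of all 16 member probes (rows; probe 1 is the brightest of its gene) in the genotype comparison (circles) and the treatment comparison (squares), with the mean of both as a bar. Hmox1, Txnrd1, and all probes of Srxn1 and Gstp1 lie left of 0 on both arrays, while Gsta4 and both Gstm1 probes lie on opposite sides of 0.

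Nfe2l2 itself showed no difference that exceeded the spread of its probes. Its brightest probe (chr2:75513771-75513830, mm9, minus strand) had a brightness of 7581 in wild-type TAM RNA and 7707 in the Sox9-deleted RNA of the same array. On the treatment array it had 9920.5 in vehicle RNA and 9842 in Sox9-deleted RNA. Its log2 ratios were -0.07 and -0.01, a mean of -0.04 ± 0.04 (SD, n = 2). The next probe gave 0.01 and 0.08. The dimmest (brightness between 45.1 and 73.8) gave 0.11 and -0.02. The sign of Nfe2l2 thus depended on the probe, and the mean over its 3 probes was 0.02.

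Hmox1, which encodes heme oxygenase 1 and degrades heme to biliverdin, iron and carbon monoxide, gave the closest pair of values. Its probe (chr8:77624207-77624266, mm9, plus strand) had a brightness of 11422 in wild-type TAM RNA and 17214 in Sox9-deleted RNA on the genotype array. The same probe had 13283 in vehicle RNA and 19653 in Sox9-deleted RNA on the treatment array. On both arrays the Sox9-deleted RNA was the brighter. The log2 ratios were -0.54 and -0.52, a mean of -0.53 ± 0.01 (SD, n = 2), or 1.44-fold more signal without Sox9. limma gave an adjusted p of 0.120 (unadjusted p = 0.00226), and 2.39% of tested genes had a lower mean. Over 12 ways of processing, Hmox1 was below 0 on both arrays in 11. The exception was median centring, with -0.42 and 0.15, where it remained below the array medians by 0.44 and 0.23. The 12 ways are not independent. A changed filter leaves every log2 ratio as it was, and so does the mean over probes for a gene with 1 probe, as here.

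Nqo1, the quinone reductase that serves as a standard readout of Nrf2, had a clear gap between the RNAs on the genotype array and almost none on the treatment array. Its probe (chr8:109912440-109912499, mm9, minus strand) had a brightness of 233 in wild-type TAM RNA and 546 in Sox9-deleted RNA. On the treatment array the values were 621 in vehicle RNA and 662 in Sox9-deleted RNA, a far smaller gap. After background correction and loess, Nqo1 log2 ratios were -0.61 and -0.03, smaller on the genotype array than the gap in brightness, with a mean of -0.32 ± 0.41 (SD, n = 2) and an adjusted p of 0.393 by limma. The spread between arrays was larger than the mean. The genotype value ran from -0.60, with median centring, to -1.23, with the log ratio of the scanner software, over the 12 ways of processing. The treatment value ran from -0.09 to 0.38. That the arrays differ for Nqo1 was not tested.

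The subunits of glutamate-cysteine ligase, which makes the first bond of glutathione, had small positive log2 ratios that did not pass the test. For the catalytic subunit Gclc (chr9:77641296-77641355, mm9, plus strand), brightness was 1547 in wild-type TAM and 1488 in Sox9-deleted RNA. In the treatment comparison it was 1881 in vehicle and 1658 in Sox9-deleted RNA. Log2 ratios of Gclc were 0.02 and 0.22, a mean of 0.12 ± 0.14 (SD, n = 2) with an adjusted p of 0.526 by limma. Gclc was thus slightly above 0 on both arrays, unlike Hmox1 and Txnrd1.

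The modifier subunit Gclm was dim. Its probe had a brightness of 49.8 in wild-type TAM, 50.3 in Sox9-deleted, 60.8 in vehicle and 40.9 in Sox9-deleted RNA of the treatment array. The log2 ratios were 0.02 and 0.07 (mean 0.05 ± 0.04, SD, n = 2, adjusted p = 0.766 by limma). A ratio this close to background is understated by the offset of 50 in the background correction, and on the treatment array it reached 0.57 with the log ratio of the scanner software. The 60 bases of the Gclm probe cover 2636 bases of mm9 (chr3:121962174-121964809, plus strand), so the probe crosses at least 1 intron. It is printed because it reads spliced mRNA, and because its dimness limits what can be said of this subunit.
Gclm probe: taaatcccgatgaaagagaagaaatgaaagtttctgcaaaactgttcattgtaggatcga

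Txnrd1 and Srxn1, which keep thioredoxin and peroxiredoxins in their reduced form, were below 0 by all 4 of their probes on both arrays. Txnrd1 encodes the cytosolic thioredoxin reductase. Its probe (chr10:82360230-82360289, mm9, plus strand) had a brightness of 11134 in wild-type TAM and 15320.1 in Sox9-deleted RNA. On the treatment array it had 12033 in vehicle and 18479 in Sox9-deleted RNA. The Sox9-deleted RNA was again the brighter on both arrays. The log2 ratios were -0.45 and -0.62, a mean of -0.53 ± 0.12 (SD, n = 2) or 1.45-fold, with an adjusted p of 0.138 by limma (unadjusted p = 0.00381). Of all tested genes, 2.35% had a lower mean.

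Srxn1 encodes sulfiredoxin, which repairs overoxidized peroxiredoxins. The brightest of its 3 probes (chr2:151936919-151936978, mm9, plus strand) had 5391 in wild-type TAM and 6527 in Sox9-deleted RNA, and 5722 in vehicle and 8264 in Sox9-deleted RNA. Its log2 ratios were -0.28 and -0.51, a mean of -0.40 ± 0.16 (SD, n = 2, adjusted p = 0.189 by limma). The other probes gave -0.33 and -0.17, and -0.35 and -0.33, with means of -0.25 and -0.34. These last 2 probes lie side by side (chr2:151935185-151935291) and share 13 bases, so they are not independent readings. All 3 Srxn1 probes therefore pointed the same way on both arrays, by 1.19-fold to 1.32-fold more signal without Sox9. Under median centring the treatment values of Txnrd1 and of the brightest Srxn1 probe turned to 0.06 and 0.09.

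**Figure D2:**
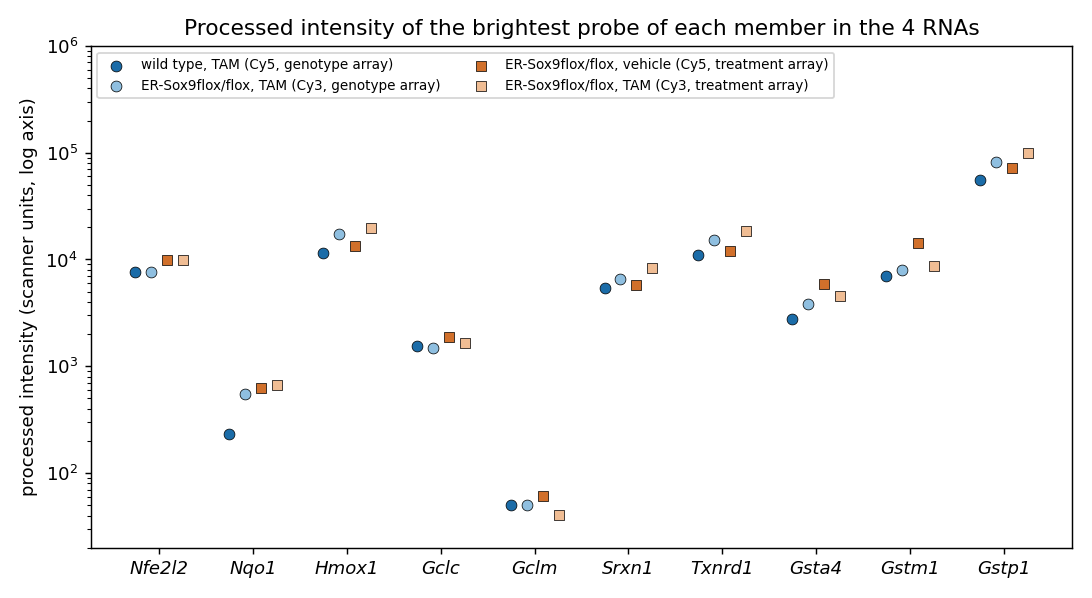
Processed intensity of the scanner software (y axis, scanner units, log scale) for the brightest probe of each member (x axis) in the 4 RNAs, with circles for the genotype array, squares for the treatment array, dark symbols for Sox9-expressing RNA and light symbols for Sox9-deleted RNA. The light symbol stands above the dark symbol of the same array, on both arrays, for Nqo1, Hmox1, Srxn1, Txnrd1 and Gstp1, and levels are to be compared only within a gene and an array.

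The glutathione transferases, which conjugate glutathione to electrophiles, split into different patterns. For Gstp1, the Pi-class enzyme, both probes were below 0 on both arrays. The brighter probe (chr19:4035486-4035545, mm9, minus strand) had a brightness of 55596 in wild-type TAM and 81934 in Sox9-deleted RNA, and of 71666 in vehicle and 99426 in Sox9-deleted RNA. Its log2 ratios were -0.32 and -0.25, a mean of -0.28 ± 0.05 (SD, n = 2, adjusted p = 0.210 by limma, unadjusted p = 0.0205). The file lists an accession of Gstp2, a close copy of Gstp1, beside that of Gstp1 for this probe, so it may read both. The other probe is listed for Gstp1 alone. It had 9256 and 11206 on the genotype array and 12201 and 13357 on the treatment array, Sox9-expressing RNA first, and log2 ratios of -0.31 and -0.13. The direction was therefore shared by the probe that may read both genes and the probe listed for Gstp1 alone. Median centring turned the mean of the brighter probe to 0.26. Both sequences are printed because they differ in which gene they can read. The second covers 816 bases of mm9 (chr19:4035908-4036723, minus strand) and so crosses an intron.
Gstp1 probe 1: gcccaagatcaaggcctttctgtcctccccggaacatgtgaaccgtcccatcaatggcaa
Gstp1 probe 2: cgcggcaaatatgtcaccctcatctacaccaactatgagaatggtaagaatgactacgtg

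Gsta4, an Alpha-class transferase that acts on the lipid peroxidation product 4-hydroxynonenal, had opposite signs on the arrays. Its brightness was 2777 in wild-type TAM and 3852 in Sox9-deleted RNA on the genotype array. On the treatment array it was 5857 in vehicle and 4536 in Sox9-deleted RNA. The Sox9-expressing RNA was thus the dimmer on the first array and the brighter on the second. The log2 ratios were -0.46 and 0.37, each a mean over 10 spots with an SD between spots of 0.03 on both arrays. The spread between spots is that of 1 hybridization and says nothing of the spread between arrays or cultures. As a mean over arrays the log2 ratio was -0.05 ± 0.59 (SD, n = 2, adjusted p = 0.931 by limma). The probe is printed because it is the member with the most spots, and it covers 1173 bases of mm9 (chr9:78046172-78047344, plus strand).
Gsta4 probe: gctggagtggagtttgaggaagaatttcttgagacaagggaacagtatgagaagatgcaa

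Gstm1, the Mu-class enzyme, showed the same split by both probes. The brighter (chr3:107815180-107815239, mm9, minus strand) had 6962 in wild-type TAM and 7952 in Sox9-deleted RNA. On the treatment array it had 14263 in vehicle and 8747 in Sox9-deleted RNA, so the vehicle RNA was clearly the brighter. Its log2 ratios were -0.22 and 0.69 (mean 0.23 ± 0.64, SD, n = 2, adjusted p = 0.650 by limma). The other probe gave -0.28 and 0.38. Gsta4 and Gstm1 were opposite in sign under all 12 ways of processing, of which those that only change the filter cannot move a log2 ratio. Whether the arrays differ could not be tested, since each comparison has 1 array.

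Some markers of other cell types had log2 ratios away from 0 on these arrays, and most of the stromal markers had the signs of Gsta4 and Gstm1. Of the 6 stromal markers (Col1a1, Col1a2, Col3a1, Dcn, Lum, Pdgfra), all tested, 5 were below 0 on the genotype array and above 0 on the treatment array, with medians of -0.82 and 0.94, and Dcn was below 0 on both. Their summed brightness was 49949.8 in wild-type TAM and 100016 in Sox9-deleted RNA, and 162329 in vehicle and 99381 in Sox9-deleted RNA. All 6 were well above background in all 4 RNAs. How many of all tested genes had the signs of Gsta4 and Gstm1 was not computed. Among the 6 macrophage and leukocyte markers, Cd68 (-0.69 and -0.77), Lyz2 (-0.90 and -0.15) and Cd14 (-1.04 and -0.05) were below 0 on both arrays, and Csf1r was near 0. Their defining markers Ptprc and Emr1 were not well above background in any RNA, and the summed brightness of the 4 tested markers was 6515 and 13007 on the genotype array and 14674 and 16385 on the treatment array, Sox9-expressing RNA first. All 4 basal markers had log2 ratios of at least 1 on each array, and the median of their means was 1.78. Of the luminal markers tested, Krt8 (0.01 and -0.74), Krt18 (-0.28 and -1.01) and Krt19 (0.05 and 0.18) did not share a direction. Of the 4 general epithelial markers, Cdh1 (-0.31 and -0.32) and Cldn7 (-0.72 and -0.93) were below 0 on both arrays. Epcam (0.46 and 0.37) and Esrp1 (0.18 and 0.28) were above 0 on both. The endothelial markers tested, Cdh5 (-0.12 and -0.16) and Kdr (0.08 and -0.09), were near 0. The part of these cell types in the members' values was not tested.

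The wider pathway was read from 87 further genes grouped by role, of which 86 were found on the array and 81 tested. Of the 81, 32 (39.5%) were below 0 on both arrays and 21 (25.9%) above 0 on both, against 34.4% and 33.0% of all tested genes, and their median mean log2 ratio was -0.07. Of these genes limma called 0 at an adjusted p under 0.05, and 13 lower and 8 higher at an unadjusted p under 0.05, which 9.33% and 10.5% of all tested genes were. With median centring, 5 were below 0 and 32 above 0 on both arrays. That setting left the median of all tested probes at 0.38 on the treatment array, and the shares of all tested genes on each side were not computed. At an adjusted p under 0.05 limma then called 5 higher (Gpx2, Gstt3, Sesn1, Aldh1a1 and Slc40a1), against 2.74% of all tested genes, and 1 lower (Gsta1), against 0.161% of all.

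Among the 10 regulators, partners and relatives of Nrf2, 6 were below 0 and 3 above 0 on both arrays. Of all tested genes, 34.4% and 33.0% were. Maff, a small Maf partner of Nrf2, was the lowest at -0.89 and -0.75 (mean -0.82, adjusted p = 0.0925 by limma), with a brightness of 1988 against 3849 on the genotype array and 2612 against 4545 on the treatment array. Nfe2l3, a relative of Nfe2l2, was the highest at 0.35 and 0.58. The mean of each kept its sign under every processing tried.

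Of the 13 genes of glutathione synthesis and recycling, 5 were below 0 and 2 above 0 on both arrays, against 34.4% and 33.0% of all tested genes. Gpx2, an epithelial glutathione peroxidase, was the single pathway gene at least 2-fold different on both arrays. Its log2 ratios were 1.07 and 1.32 (mean 1.19, adjusted p = 0.0883 by limma). Its brightness was 15679 in wild-type TAM and 7053 in Sox9-deleted RNA, and 22683 in vehicle and 8692 in Sox9-deleted RNA. It was the higher in Sox9-expressing RNA on both, opposite to Hmox1 and Txnrd1, and its mean ran from 1.18 to 1.58 over the ways of processing. Glrx, a glutaredoxin, was the lowest with -0.47 and -0.12.

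Of 21 tested genes for other transferases and glutathione export, 7 were below 0 and 5 above 0 on both arrays, against 34.4% and 33.0% of all tested genes. The other 9 had opposite signs, as had the rest of all tested genes. All of the 9 but Abcc4 (0.06 and -0.03) had the signs of Gsta4 and Gstm1. The share of all tested genes with those signs was not computed. The group's median was -0.13 on the genotype array and 0.24 on the treatment array. Gsta1 had the lowest mean over both arrays of all pathway genes, at -1.25 and -0.94 (mean -1.10, adjusted p = 0.0925 by limma). Its brightness was 69.8 against 485 and 187 against 548, Sox9-expressing RNA first. Its mean ran from -0.91, with median centring, to -2.17, with the log ratio of the scanner software. Gstt3, of the Theta class, was the highest at 0.28 and 0.84.

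Thioredoxin and peroxiredoxin genes (13) had 5 below 0 and 4 above 0 on both arrays. Of all tested genes, 34.4% were below 0 and 33.0% above 0 on both, which also stands beside the other counts of this paragraph. Sesn1, a sestrin, was the highest at 0.49 and 1.10, and Prdx5 the lowest at -0.62 and -0.23. Of the 6 genes of NADPH supply, 2 lay below 0 and 2 above 0 on both, with Me1, the cytosolic malic enzyme, lowest at -0.99 and -0.24 and Tkt, transketolase, highest at 0.14 and 0.03. Of 7 tested genes for quinone, carbonyl and epoxide detoxification, 4 were below 0 and 2 above 0 on both. Ptgr1, a prostaglandin reductase, was lowest there at -0.43 and -0.27, and Aldh1a1, a retinaldehyde dehydrogenase, was highest on average with 0.10 and 1.49, nearly all of it on the treatment array.

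Of 7 tested genes of heme and iron handling, 3 were below 0 and 2 above 0 on both arrays. For all tested genes the shares were 34.4% and 33.0%, here and for the next group. Slc40a1, the iron exporter ferroportin, was the highest at 0.72 and 1.12, and Ftl1, the ferritin light chain, the lowest at -0.45 and -0.32. Ftl1 stood on the same side of 0 as Hmox1 and Slc40a1 on the other. Of 4 genes that remove superoxide and hydrogen peroxide, Sod1 was above 0 on both (0.10 and 0.23) and none was below 0 on both. Sod2, the mitochondrial enzyme, was at -0.02 and 0.03. Median centring turned the mean of Ftl1 to 0.15 and that of Ptgr1 to 0.04, and the log ratio of the scanner software turned Sod1, Sod2 and Tkt slightly below 0.

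**Figure D3:**
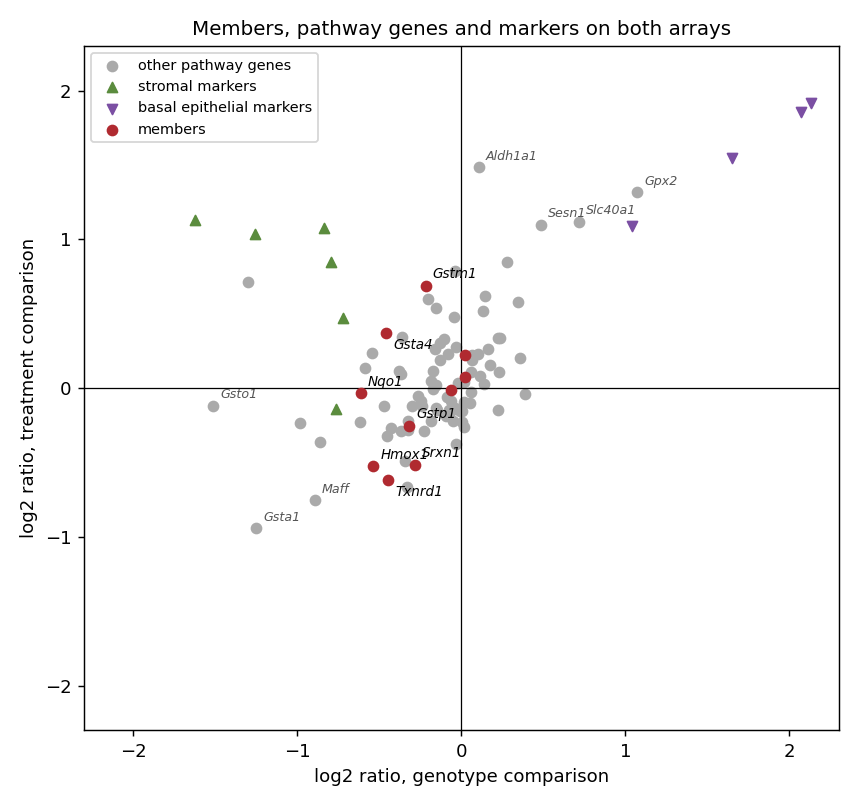
Log2 ratio in the genotype comparison (x axis) against that in the treatment comparison (y axis) for the 10 members (red), the 81 other tested pathway genes (grey), the 6 stromal markers (green) and the 4 basal markers (purple), each gene read from its brightest probe. Hmox1, Txnrd1, Srxn1 and Gstp1 sit in the lower left with Maff and Gsta1, Gpx2 sits in the upper right with the basal markers, and Gsta4 and Gstm1 lie in the upper left, where 5 of the 6 stromal markers lie.

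The members' means under each way of processing are plotted next. Nqo1, Hmox1, Srxn1 and Txnrd1 kept a negative mean and Gclc, Gclm and Gstm1 a positive mean in all 12. A change of the filter alone leaves every mean as it was. The lowest adjusted p reached by any member in the 12 ways, or in the methods' t-test, was 0.0908 by limma, for Hmox1 with no filter on dim probes.

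**Figure D4:**
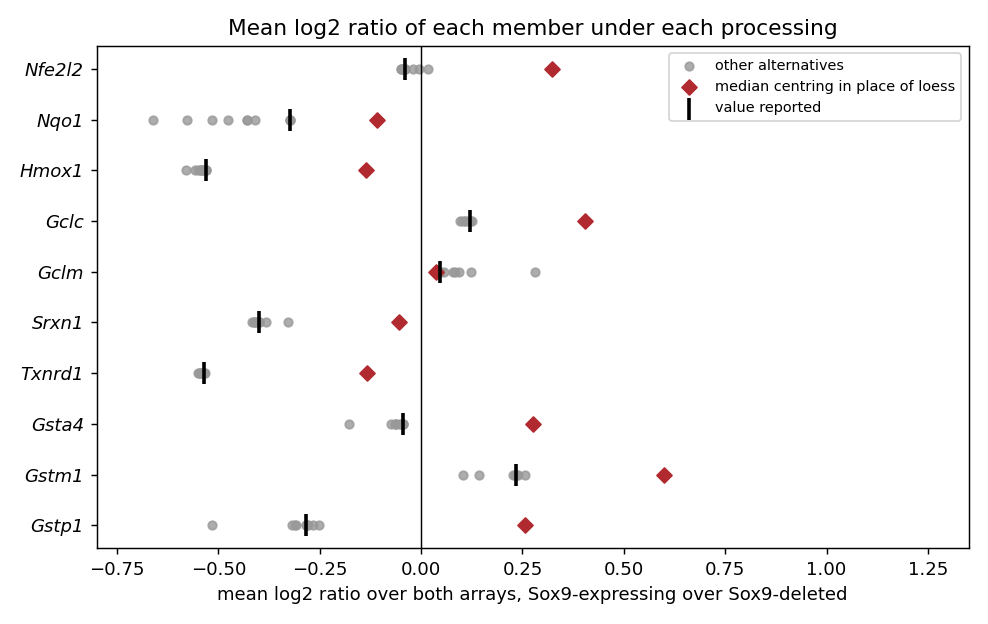
Mean log2 ratio over both arrays (x axis) of each member (rows) as reported (black bar), with median centring in place of loess (red diamonds) and under the other ways of processing (grey dots). Median centring moved every member but Gclm to the right and put Nfe2l2, Gsta4 and Gstp1 above 0, while the other ways left all means except that of Nfe2l2 on the side reported.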

How the data were processed

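Prostasphere RNA was measured on 2 two-color arrays, with 45018 spots each, of which 1639 were control spots. Per the file headers, Agilent Feature Extraction 10.5.1.1 gave the mean and local background intensity of each spot. The authors' software also made processed intensities (background-subtracted, dye-normalized) and deposited their log10 ratio of Cy5 over Cy3. The authors deposited a table of processed values, which its values show to be log2 ratios, and the steps behind it are not given in the sources used here beyond limma in the submitters' processing notes. Probe positions are on mm9, per the file headers.

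Mean intensities were corrected with normexp (offset 50) and loess in limma 3.58.1 (R 4.3.3), leaving out control spots and outlier spots (126 and 130), and spots of a probe were averaged. Probes marked well above background on each array in Cy5, or on each in Cy3 (22731 of 41174), were tested against 0 with limma, 2-sided, with Benjamini-Hochberg adjustment over all of them. Each gene was represented by its brightest probe. On the genotype array, spots with outlying local background made normexp add 117.9 (Cy5) and 36.5 (Cy3) to every spot, against 9.0 and -1.7 on the treatment array, so ratios of dim probes there are understated more. Brightness per RNA was therefore taken from the processed intensities, and an alternative that replaces those backgrounds was added after seeing the data. The number of arrays limits the precision, and 0 spots were saturated.

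Members and lists were chosen with earlier results of these data known. Named are all members, the highest and lowest tested gene of each pathway role, any pathway gene past 2-fold on both arrays, and Sox9, Krt5 and Krt14. The code was tested on simulated data. Python 3.11.15, pandas 2.3.3 and matplotlib 3.10.9 made the tables and plots.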

Additional observations from a re-analysis of the deposited data

Results flagged for a closer look

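Gsta4 and Gstm1 moved in opposite directions on the 2 arrays: below 0 in the genotype comparison and above 0 in the treatment comparison. The treatment log2 ratio exceeded the genotype log2 ratio by 0.83 for Gsta4 and by 0.91 for the brightest Gstm1 probe. With 1 array per comparison, these differences were not tested. Of the 6 stromal markers, 5 had the same signs, and their part in this was not tested. The share of all tested genes with these signs was not computed.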

How the results depend on the processing

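Median centring in place of loess turned the median of the members' mean log2 ratios from -0.16 to 0.15, the members with 1 sign on both arrays from 8 to 3 and those below 0 on both from 6 to 0, and gave mean log2 ratios of 0.32 for Nfe2l2, 0.28 for Gsta4 and 0.26 for Gstp1. The mean over all probes turned Nfe2l2 to 0.016. Without replicate 1 (the treatment array alone) or without replicate 2, the members' median was -0.02 and -0.30, Gsta4 was at 0.37 and -0.46, and Gstm1 at 0.69 and -0.22. Members above 0 on both arrays fell from 2 to 1 without background subtraction and with the scanner software's log ratio, and to 0 in the authors' processed values. Over the whole array, limma called 2 probes as reported, 522 with median centring, 68 in the authors' values, 21 with no filter, 3 with replaced backgrounds and an offset of 10, and 0 with an offset of 10 alone, replaced backgrounds, no background subtraction, arrays scaled to 1 spread, the scanner's log ratio or the methods' t-test. No member reached 2-fold on both arrays under any of these, and none passed an adjusted p of 0.05. Values of Gclm, Nqo1 and the dimmest Nfe2l2 probe are limited by signal over background. Each log2 ratio sets the 2 RNAs of 1 array against each other, so the tests against 0 are paired within an array.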
